A study of Mus musculus with 42 samples.

Results

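Gene expression was compared between Purkinje cells and Stellate/Basket cells of the mouse cerebellum at postnatal day 28, using 4 Affymetrix MOE430.2 arrays of each cell type, 8 of the 42 deposited columns. The arrays were chosen by their titles, and no measured value entered the choice. All cells came from 28-day-old mice of the G42 line, CB6-Tg(Gad1-EGFP)G42Zjh/J, carrying a Gad67-GFP bac transgene, in which the GABA-synthesising neurons targeted by the transgene fluoresce green, and all were labelled male. Slices were held in blockers of glutamate receptors and sodium channels (AP5, CNQX and TTX), digested with protease and triturated, and single cells were picked by hand by their fluorescence and soma size. Polyadenylated RNA was amplified in a pair of rounds before labelling. The number of mice or cells behind an array is not given in the sources used here. If arrays of a group share animals, the p-values below measure only the spread between arrays.

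Purkinje cells are the only output neurons of the cerebellar cortex. They receive parallel fibre and climbing fibre excitation and inhibit the cerebellar nuclei. Stellate and basket cells are GABAergic interneurons of the molecular layer that inhibit Purkinje dendrites and somata, so the comparison sets the main inhibitory target of the molecular layer against its local inhibitory source, at an age when the circuit is largely in place.

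The 8 arrays shared a centre, with medians of the log2 signal from 6.02 to 6.11. Between a Purkinje and a Stellate/Basket array, r across probe sets ran from 0.860 to 0.872. Purkinje arrays 3 and 4 stood closest of the 50 pairs of arrays within a group across all ages, with an SD of their log2 difference of 0.180. The other pairs of Purkinje arrays differed with an SD of 0.385 to 0.460, and pairs of Stellate/Basket arrays with 0.417 to 0.439. The series' text gives 3 biological replicates where each group here holds 4 columns, so arrays 3 and 4 were also averaged into 1 sample as an alternative.

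Several arrays went against the label male. Xist, the RNA that coats the inactive X chromosome, had log2 values of 7.08, 7.22, 10.83 and 11.07 in Purkinje arrays 1 to 4 and of 12.42, 12.41, 12.29 and 12.54 in the Stellate/Basket arrays. Eif2s3y, a Y-linked gene, read 8.28, 6.95, 4.39 and 4.38 in the Purkinje arrays and 4.83, 4.42, 5.04 and 5.82 in the Stellate/Basket arrays. Purkinje arrays 3 and 4 and all Stellate/Basket arrays therefore had high Xist, and Eif2s3y was clearly raised in Purkinje arrays 1 and 2. Of the 571 X-linked genes tested, 41 were higher and 64 lower in Purkinje cells, or 18.4% called against 16.5% of all genes. Over all genes 8.36% were higher and 8.14% lower, so X-linked calls leaned more towards lower. No test was made of that lean. Counts are given below without Purkinje arrays 3 and 4, and without arrays 1 and 2, after which every array left had high Xist.

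Differences are on the log2 scale, Purkinje minus Stellate/Basket, and ± gives the standard error unless SD is named. Calls required a limma adjusted p under 0.05 together with a difference of at least 1 in size. Of 17478 genes tested, 2884 were called, or 16.5%. Purkinje cells were higher for 1461 genes (8.36%) and lower for 1423 (8.14%). The numbers were close, but large differences more often ran towards Stellate/Basket cells: a log2 size of at least 3 was reached by 95 genes higher and 206 genes lower in Purkinje cells, and a size of at least 5 by 3 and 28. No test was made of that imbalance. All 4 arrays of one cell type lay beyond all 4 of the other for 1395 of the 1461 and 1336 of the 1423, against 40.6% of all genes tested. A further 4890 genes passed the adjusted p with a difference under 1. Without Purkinje arrays 3 and 4 the fit called 3272 genes, 2541 of them shared with the full set. Without arrays 1 and 2 it called 2780, of which 2387 were shared. Counts of called genes in the lists below stand beside the shares of 8.36% higher and 8.14% lower over all genes. No list count was tested against those shares.

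**Figure D1:**
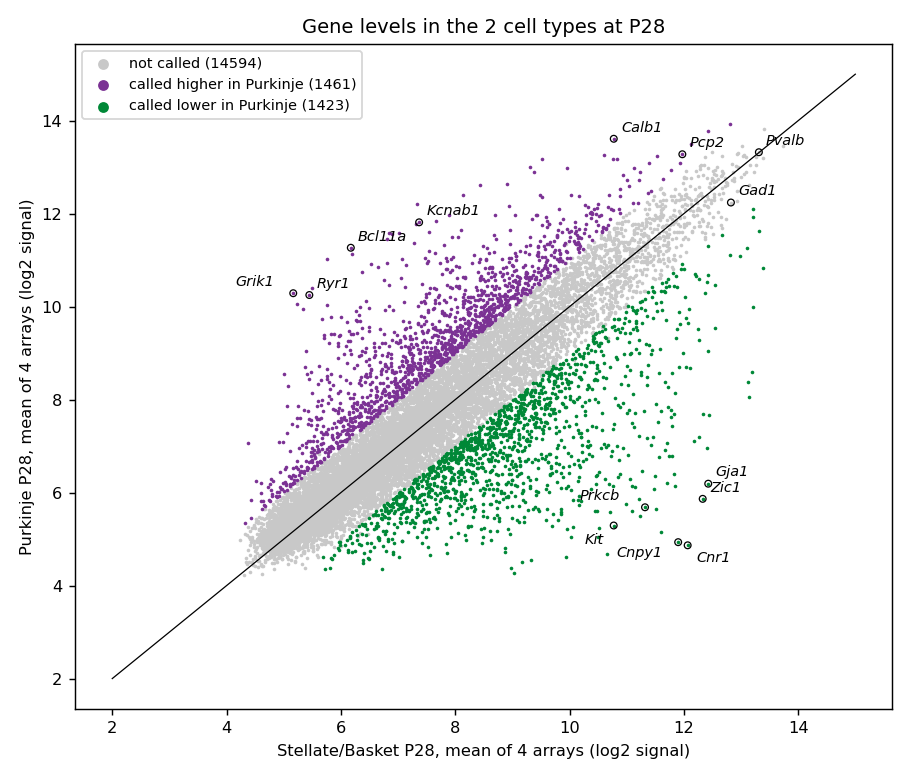
Mean log2 signal of each gene tested over the 4 Stellate/Basket arrays (horizontal axis) and the 4 Purkinje arrays (vertical axis) at P28, with called genes in colour and the line of equality in black. The 14594 genes not called follow the line, while Cnr1, Cnpy1 and Zic1 lie far to the lower right and Grik1 and Bcl11a to the upper left.

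Markers separated the cell types as labelled. Of the 11 Purkinje markers tested, 9 were higher in Purkinje cells and none lower, with a median difference of 2.45 against 0.07 for all genes tested. Slc1a6, the glutamate transporter EAAT4, read 12.53, 12.15, 12.90 and 12.99 in Purkinje arrays and 8.57, 9.12, 9.07 and 8.84 in Stellate/Basket arrays. The difference was 3.74 ± 0.38. Calb1, the calcium buffer calbindin, was higher by 2.84 ± 0.87 (adjusted p = 0.00878, limma), and Ppp1r17 by 3.71 ± 0.45. Car8 and Rora were not called, at 0.83 and 0.18. The Stellate/Basket arrays were themselves high for Pcp2 on its brightest probe set. Pcp2, a defining Purkinje gene, read 11.77, 12.06, 11.82 and 12.24 there and 13.38, 12.99, 13.40 and 13.35 in Purkinje arrays. Its difference of 1.30 ± 0.44 (adjusted p = 0.0155, limma) was 1.21 without Purkinje arrays 3 and 4, where the adjusted p was 0.0827. Of the Pcp2 probe sets, this brightest one had the highest Stellate/Basket level: 2 others were called at 2.76 and 2.23, with Stellate/Basket means of 8.92 and 5.04. Calb1 likewise had a probe set at 5.19, with a Stellate/Basket mean of 7.00. The mean of the Purkinje marker list, which includes Pcp2, was 10.09 to 10.36 over Stellate/Basket arrays and 12.34 to 12.62 over Purkinje arrays. The interneuron marker mean was 9.67 to 9.71 in the same Stellate/Basket arrays. The source of the Purkinje marker signal there was not tested. Pvalb, the calcium buffer parvalbumin, was at 12.94 to 13.49 in every array of both types.

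All 8 molecular layer interneuron markers tested were lower in Purkinje cells, with a median of -4.14. Kit, the receptor tyrosine kinase of these interneurons, read 5.15, 5.65, 5.23 and 5.14 in Purkinje arrays and 10.87, 10.70, 10.70 and 10.82 in Stellate/Basket arrays. The difference was -5.48 ± 0.25, with no overlap. Its ligand gene Kitl ran the opposite way, at 12.01, 11.74, 11.72 and 12.11 in Purkinje arrays and 9.61, 9.70, 8.92 and 9.17 in Stellate/Basket arrays. Ptprk, a receptor phosphatase, differed by -5.70 ± 0.23 and Lypd6 by -5.46 ± 0.55. The transcription factor Tfap2b differed by -4.19 ± 0.30. Without either pair of Purkinje arrays, 7 of the 8 were called.

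The genes of GABA production did not separate the cells by the call rule. Gad1, which makes GABA and whose promoter drives the reporter, read 12.12 to 12.31 in Purkinje arrays and 12.73 to 12.91 in the other cell type, and differed by -0.58 ± 0.13. Gad2 differed by -0.11 ± 0.18 (adjusted p = 0.633, limma), although a second probe set of Gad2 was called at -1.40. The vesicular transporter Slc32a1 differed by -0.57 ± 0.32. Slc6a13, a GABA transporter, was the 1 called gene of 7 in this list, at 1.02, and fell under the threshold without Purkinje array 1.

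Glial transcripts were higher in the Stellate/Basket arrays. Of 14 astrocyte and Bergmann glia markers tested, 11 were lower in Purkinje cells, with a median of -3.77. The mean log2 signal of the list ran from 10.32 to 10.42 over Stellate/Basket arrays and from 6.70 to 7.56 over Purkinje arrays. Gja1, the astrocyte gap junction protein connexin 43, read 12.47, 12.55, 12.41 and 12.28 in Stellate/Basket arrays. It read 9.35 in Purkinje array 1 and 5.10, 5.15 and 5.17 in the others. Aqp4, the astrocyte water channel, differed by -5.27 ± 0.48, Gdf10 by -4.78 ± 0.69 and Timp4 by -5.43 ± 0.81. Gfap, at means of 6.90 and 6.85, and Hopx, at 12.23 in each, did not pass the test, and Sox9 at -0.96 lay just under the threshold. The part of glial RNA in the other differences was not tested, and fewer cells of a type and less RNA per cell cannot be told apart in such samples.

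As lists, markers of other cells moved less, with medians from -0.48 to 0.12. Of 8 microglia markers, Ctss, Csf1r and C1qa were lower in Purkinje cells, at -2.97, -1.70 and -1.02, while Aif1 and Cx3cr1 were not called. The call of C1qa was lost without Purkinje array 1 or without Stellate/Basket array 1, 3 or 4 (-0.93 to -0.99), and the other Csf1r probe sets differed by -0.10 and -0.11. Of 12 granule cell markers, Neurod1, Gabra6 and Cbln3 were lower in Purkinje cells, Barhl2 was higher at 1.51, and 8 were not called. The probe sets of Neurod1 differed by -4.40 and -3.50, and Gabra6 and Cbln3 by -2.33 and -2.08. No gene was called among 10 vascular markers or among 6 markers of Golgi or unipolar brush cells. Of 9 oligodendrocyte lineage markers, Cnp was lower and Mog and Olig1 higher in Purkinje cells. Purkinje array 1 carried more of several of these RNAs than the other Purkinje arrays: Cldn5, an endothelial tight junction gene, read 8.88 there and 6.11, 6.01 and 6.74 in the others. Mog lost its call without that array.

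**Figure D2:**
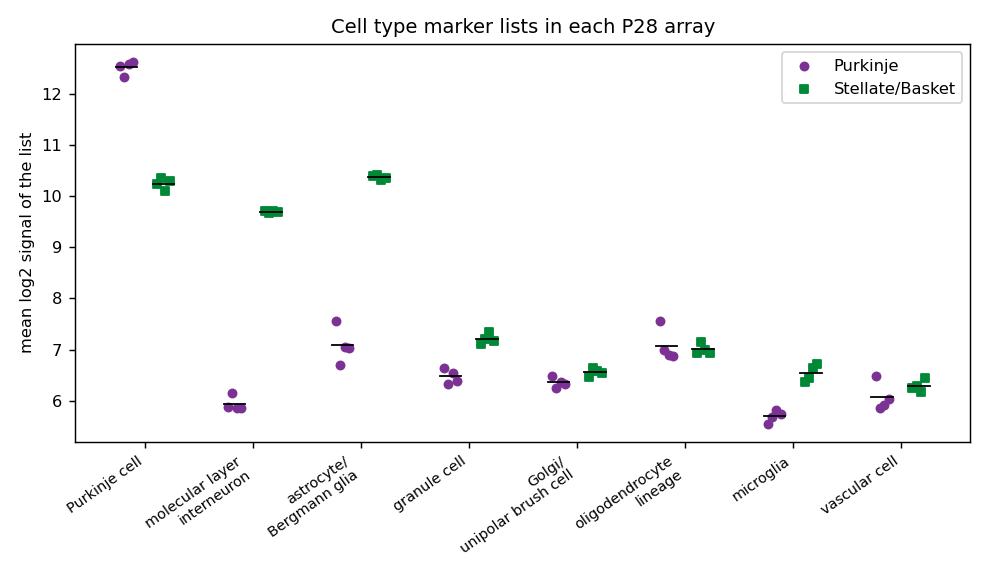
Mean log2 signal of 8 cell type marker lists in each of the 8 arrays, with circles for Purkinje arrays, squares for Stellate/Basket arrays and a bar at the mean of 4 arrays. The astrocyte and Bergmann glia list lies between 10.32 and 10.42 in Stellate/Basket arrays and between 6.70 and 7.56 in Purkinje arrays.

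The largest difference towards Purkinje cells was in Grik1, a kainate receptor subunit, with 10.08, 10.38, 10.18 and 10.52 in Purkinje arrays and 5.33, 5.47, 4.88 and 4.99 in Stellate/Basket arrays. Grik3, a subunit of the same receptor family, ran the other way, at 4.95, 4.63, 4.62 and 4.52 against 10.81, 10.68, 10.58 and 10.57. The differences on the probe sets used were 5.12 ± 0.46 for Grik1 and -5.98 ± 0.25 for Grik3. A second probe set differed by 0.20 for Grik1 and by 0.21 for Grik3, and neither was called. Bcl11a, a zinc finger transcription factor, was 34.1-fold higher in Purkinje cells, at 11.34, 11.34, 11.38 and 11.01 against 5.58, 6.39, 6.60 and 6.13. Ryr1, the calcium release channel best known from skeletal muscle, read 10.26, 10.53, 10.13 and 10.08 in Purkinje arrays and 5.60, 5.88, 4.98 and 5.34 in Stellate/Basket arrays. The other leading genes higher in Purkinje cells were Nell1, Cep76, Stk17b, Klhl4, Rasl11b, Arhgap26, Pde5a, Smpx, Kalrn, Itpka, Kcnab1 and Ebf1, at log2 differences of 4.93 down to 4.38. Itpka phosphorylates inositol trisphosphate and Pde5a degrades cyclic GMP.

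Cnr1, the cannabinoid receptor CB1, had the largest difference of all genes called with separate arrays. It read 12.16, 12.17, 12.11 and 11.82 in Stellate/Basket arrays and 4.70, 4.88, 5.21 and 4.67 in Purkinje arrays, a 147-fold difference. Dagla, which makes the CB1 ligand 2-arachidonoylglycerol, was higher in Purkinje cells, at 11.45, 10.65, 10.60 and 10.79 against 7.92, 8.18, 7.91 and 8.05. The other 6 genes of the endocannabinoid list, among them the degrading enzymes Mgll and Faah, were not called. Cnpy1 differed by -6.97 ± 0.61, and 1 Purkinje array, the second, read 6.73 where the others read 4.23 to 4.48. Zic1 and Prdm8, transcription factors, differed by -6.46 ± 0.41 and -6.45 ± 0.15. The rest of the 15 leading genes lower in Purkinje cells were Gja1, Grik3, Lin7a, Ptprk, Prkcb, Slc24a3, Megf10, Kit, Lypd6, Btbd11 and Timp4, from -6.24 to -5.43. The files hold no detection calls, and the size of a fold against a mean near 5 is uncertain. A second Cnr1 probe set differed by -0.13, and the mean of all probe sets of a gene gave -3.67 for Cnr1 and 2.66 for Grik1.

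**Figure D3:**
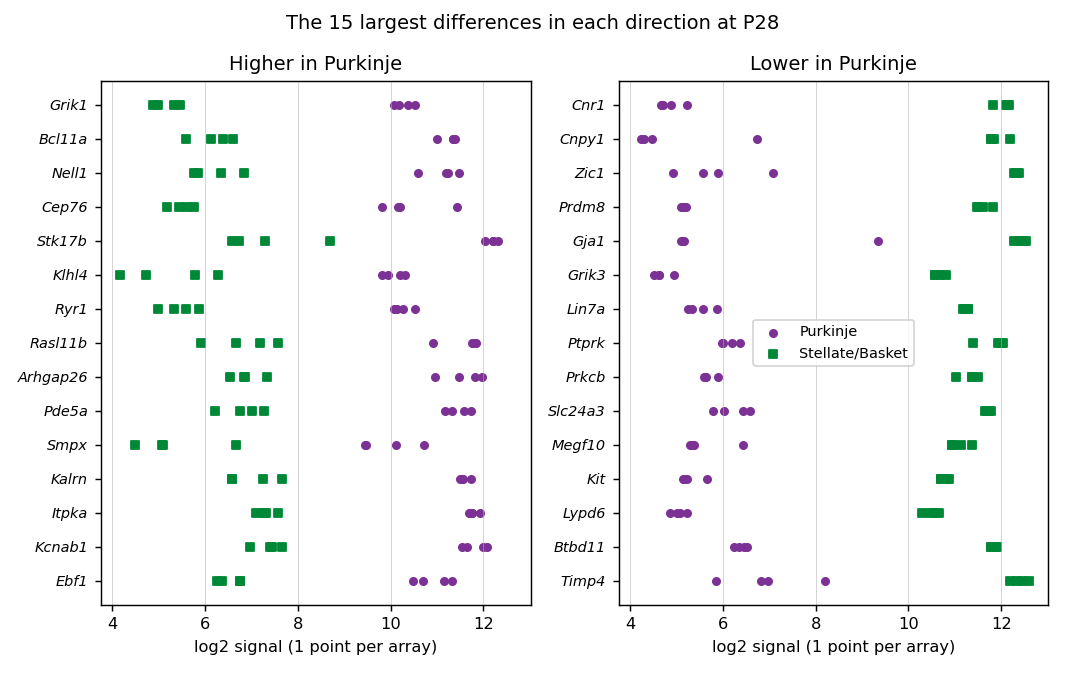
Log2 signal in each array (1 point per array, circles for Purkinje and squares for Stellate/Basket) of the 15 called genes with the largest difference in each direction whose arrays do not overlap. The cell types lie far apart for each of the 30 genes, and Purkinje array 1 stands alone for Gja1 at 9.35.

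Transcription factors divided by lineage. Of 14 Purkinje lineage factors tested, 8 were higher and 2 lower in Purkinje cells, with a median of 1.51. Ebf1 read 10.47, 10.70, 11.16 and 11.32 in Purkinje arrays and 6.75, 6.36, 6.75 and 6.26 in Stellate/Basket arrays. Its family members Ebf3 and Ebf2 were higher by 3.23 and 2.11, Foxp2 by 2.23 and the LIM factors Lhx5 and Lhx1 by 1.85 and 1.20. Esrrg, an orphan nuclear receptor placed in the same list, ran the other way: it read 6.46, 6.07, 6.18 and 5.99 in Purkinje arrays and 10.62, 10.81, 10.39 and 10.01 in Stellate/Basket arrays. Foxp1 was the other lower gene, at -1.35. Of 17 interneuron lineage factors, 9 were lower and none higher in Purkinje cells, with a median of -1.38. Tcf4, a basic helix-loop-helix factor, read 6.54, 5.53, 5.35 and 5.63 in Purkinje arrays and 11.02, 11.16, 10.91 and 10.84 in Stellate/Basket arrays. The nuclear factor I genes Nfib, Nfix and Nfia differed by -5.13, -3.42 and -3.00.

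Because 3 members of the EBF family were higher in Purkinje cells, the 250 bases upstream of the RefSeq gene start (GRCm38.p6) were searched on both strands for the palindromic EBF consensus, TCCC followed after any 2 bases by GGGA. A promoter was available for 13884 of the genes tested, and 1.12% of them held a match. The share was 1.59% of 1194 genes higher in Purkinje cells (19 genes) and 1.33% of 1128 genes lower (15 genes), both near the share of all genes. AGGTCA, the core element bound by Rora and related receptors, was found upstream of 14.2%, 11.4% and 14.5% of the same groups. Among genes named here, Grm7 and Ptprr, both higher in Purkinje cells, and Chl1, lower, held the EBF consensus. Their upstream sequences are printed 5′ to 3′ on the gene's strand, which is the plus strand for all 3, with the match in capitals, to show where it lies. They lie at chr6:110645262-110645511 for Grm7, chr10:116143648-116143897 for Ptprr and chr6:103510626-103510875 for Chl1, all upstream of the transcribed gene.
Grm7: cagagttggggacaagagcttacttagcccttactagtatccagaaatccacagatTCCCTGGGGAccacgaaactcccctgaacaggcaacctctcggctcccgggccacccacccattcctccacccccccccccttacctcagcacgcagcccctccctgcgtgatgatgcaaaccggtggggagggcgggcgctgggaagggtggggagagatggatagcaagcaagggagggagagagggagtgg
Ptprr: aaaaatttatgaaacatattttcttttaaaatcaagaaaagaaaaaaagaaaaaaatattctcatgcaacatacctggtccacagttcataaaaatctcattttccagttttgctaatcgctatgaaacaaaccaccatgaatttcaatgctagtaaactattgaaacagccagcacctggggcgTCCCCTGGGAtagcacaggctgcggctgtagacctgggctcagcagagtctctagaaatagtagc
Chl1: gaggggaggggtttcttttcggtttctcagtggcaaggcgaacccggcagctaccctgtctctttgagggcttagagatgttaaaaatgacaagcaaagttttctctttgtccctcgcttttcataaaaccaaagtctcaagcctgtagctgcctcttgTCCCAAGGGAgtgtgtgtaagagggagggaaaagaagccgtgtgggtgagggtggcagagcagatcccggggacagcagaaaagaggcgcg
The match began 194 bases before the gene start in Grm7, 65 in Ptprr and 91 in Chl1. A match describes the letters and does not show binding.

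Glutamate receptors differed by subunit. Among 13 AMPA receptor genes, 4 were lower in Purkinje cells and none higher. Gria4, an AMPA receptor subunit, read 7.43, 6.42, 7.51 and 6.93 in Purkinje arrays and 11.68, 11.95, 11.52 and 11.66 in Stellate/Basket arrays. Cacng5 and Cacng4, auxiliary subunits of these receptors, differed by -3.83 ± 0.38 and -1.31 ± 0.19. Gria1 differed by -1.20 ± 0.36, but read 10.22 and 10.06 in Purkinje arrays 1 and 2 and 10.98 and 11.35 in arrays 3 and 4. Without arrays 1 and 2 its difference was -0.69 (adjusted p = 0.223, limma). Of 13 kainate and NMDA receptor genes, Grik4 was higher in Purkinje cells along with Grik1, while Grin3a and Grik5 were lower along with Grik3. Glial markers were also lower in Purkinje arrays, and the part of glial RNA in the receptor differences given here and below was not tested.

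Metabotropic signalling through Gq and intracellular calcium stores is the route by which parallel fibre input releases calcium in Purkinje spines. Of 23 genes tested in this list, 5 were higher and 3 lower in Purkinje cells. Casq2, a calcium-binding protein of the store, read 11.09, 11.01, 10.60 and 10.70 in Purkinje arrays and 6.69, 6.85, 6.71 and 6.32 in Stellate/Basket arrays. Plcb3 was higher by 3.16 ± 0.24 and its relative Plcb1 was lower, at -2.10. The scaffolds divided the same way, Homer3 being higher by 2.45 and Homer2 at -1.41. Grm7, a presynaptic glutamate receptor, was higher in Purkinje cells by 3.66 ± 0.28, and Grm3 differed by -3.56 ± 0.34.

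Protein kinase C isoforms showed 1 gene higher and 2 lower of 8. Prkcb read 5.89, 5.58, 5.64 and 5.62 in Purkinje arrays and 11.38, 11.50, 11.04 and 11.37 in Stellate/Basket arrays. Prkce differed by -2.41 ± 0.26 and Prkcz by 1.51 ± 0.23.

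Calcium extrusion and buffering genes were called in both directions, with 5 higher and 5 lower of 16. Of all genes tested, 8.36% were higher and 8.14% lower. Towards Purkinje cells stood Atp2a3, a pump of the endoplasmic reticulum, at 3.54 ± 0.29, with Calb1, Atp2b2, Atp2a2 and Pcp4. Towards Stellate/Basket cells stood Slc24a3, a potassium-dependent sodium-calcium exchanger, at -5.50 ± 0.37, and the plasma membrane pumps Atp2b3 at -4.21 and Atp2b1 at -3.20. Slc8a3 and Slc24a2 were the other lower genes. Atp2b3 read 8.39 in Purkinje array 2 and 6.24 to 6.33 in the others.

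Voltage-gated channel genes were also called in both directions. Of 13 calcium channel genes, 4 were higher and 4 lower in Purkinje cells. Cacna1g, the T-type pore subunit, read 10.76, 10.66, 10.23 and 10.13 in Purkinje arrays and 7.94, 8.08, 7.91 and 8.12 in Stellate/Basket arrays, while the auxiliary subunit Cacna2d3 differed by -4.12 ± 0.28. Cacna1a, the P/Q-type pore subunit, was not called (-0.11 ± 0.21). Of 10 sodium channel genes, Scn4b, a beta subunit, was higher by 3.44 ± 0.27 and Fgf12 by 1.17. Scn2a and Scn3b, together with Fgf13 and Fgf14, intracellular partners of these channels, were lower. Fgf14 was at -1.91, but another of its probe sets was called at 1.02, and without Purkinje arrays 1 and 2 its adjusted p was 0.0567 (limma). Fgf13 read 5.35, 5.67, 5.54 and 5.64 in Purkinje arrays and 10.11, 9.54, 9.96 and 9.79 in Stellate/Basket arrays.

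Of 24 voltage-gated potassium channel genes, 7 were higher and 2 lower in Purkinje cells, while the list's median of 0.07 was that of all genes tested. The largest differences were in accessory subunits of the Kv1 and Kv4 channels. Kcnab1, a Kv1 beta subunit, read 11.65, 11.54, 11.99 and 12.07 in Purkinje arrays and 6.98, 7.40, 7.65 and 7.45 in Stellate/Basket arrays. Kcnip1, a Kv4 partner, differed by 4.36 ± 0.31, Dpp10 by 4.18 ± 0.30 and Kcnip4 by 3.21 ± 0.36. Kcnc4, a fast-activating pore subunit, was lower, at -2.97 ± 0.24, and Kcna2 differed by -1.68. Among 13 calcium-activated, HCN and leak channel genes, Kcnmb4 was higher by 1.96 ± 0.19, Kcnk2 was lower and 11 were not called, where 16.5% of all genes tested were called.

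The called GABA-A receptor genes were all lower in Purkinje cells. Of 11 GABA-A subunits tested, 5 were lower. Gabrb1 read 7.84, 7.13, 7.32 and 7.23 in Purkinje arrays and 10.73, 10.92, 10.69 and 10.66 in Stellate/Basket arrays. Gabra2 differed by -2.11 ± 0.36 and Gabrg1 by -2.02 ± 0.37. Gabra6, the granule cell subunit, differed by -2.33 ± 0.36. Gabbr1 was the 1 called gene of 8 in the GABA-B and GIRK list, at 1.85 ± 0.20, and another of its probe sets was called at -2.43, so its direction depends on the probe set. Of 9 genes of glycine receptors and the inhibitory synapse, Nlgn1, Slc6a9 and Nlgn3 were lower. Each lay within 1.48 log2 units of 0, and the last lost its call in several alternatives.

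Of 34 genes of vesicle release, 10 were lower and 4 higher in Purkinje cells, 20 were not called, and the median was 0.01. Unc13c, a vesicle priming protein, differed by -4.50 ± 0.39, and read 7.52 in Purkinje array 2 against 5.34 to 6.13 in the others. The synapsins Syn3 and Syn2 differed by -2.72 and -2.46. Doc2b, a calcium sensor of release, ran the other way, at 11.46, 11.21, 10.83 and 10.68 in Purkinje arrays against 7.51, 7.49, 7.04 and 7.81. Rab3d, Vamp1 and Unc13b were the other genes higher in Purkinje cells.

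Secreted signals were divided. Of 23 tested, 5 were higher and 3 lower in Purkinje cells. Shh, the granule cell precursor mitogen, read 10.93, 10.74, 10.34 and 10.45 in Purkinje arrays and 7.00, 9.24, 8.55 and 7.34 in Stellate/Basket arrays. Igf1 was higher by 2.90 ± 0.48, Cck by 2.78 ± 0.41 and Adcyap1 by 1.40. Penk, the enkephalin precursor, was lower, at 5.72, 5.86, 6.34 and 6.45 against 10.18, 9.90, 10.21 and 9.46. Gdf10, a glial marker above, and Nxph1 were the other lower genes.

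Most surface and matrix lists held more genes lower than higher in Purkinje cells. Of 21 receptor tyrosine kinases and phosphatases, 10 were lower and 2 higher, with a median of -0.97. Ptprr was the large exception, at 11.65, 11.71, 11.96 and 12.06 in Purkinje arrays against 7.80, 7.52, 8.36 and 6.95. Ptprf differed by -3.42 ± 0.33. Of 41 axon guidance genes, 10 were lower and 4 higher: Sema3e, Sema6d and Ntn4 differed by -4.16, -4.09 and -3.96, and Sema7a by 2.98 ± 0.28. Chl1, a cell adhesion molecule of the L1 family, differed by -4.94 ± 0.36, and Cntnap2, a partner of axonal potassium channels, by 2.84 ± 0.55. Of 10 perineuronal net genes, Tnr read 4.54, 4.09, 4.26 and 4.16 in Purkinje arrays and 9.03, 8.87, 8.79 and 9.42 in Stellate/Basket arrays. Ptprz1, at -4.76, and Vcan, at -1.56, were also lower, and Hapln4 was higher by 2.40 ± 0.23. Several of these genes are also made by glia, whose markers moved the same way, and the part of those cells was not tested. Of 20 cadherins, Pcdh17, Pcdh19 and Pcdh20 were higher and Cdh22 and Cdh7 lower.

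The cytoskeleton list held 7 genes higher and 7 lower of 22. The neurofilament genes Nefm, Nefh and Nefl were higher in Purkinje cells, by 3.36, 2.79 and 1.56. Gap43, a growth cone protein, read 5.87, 5.45, 5.76 and 5.72 in Purkinje arrays and 9.21, 8.82, 8.68 and 8.91 in Stellate/Basket arrays. The actin-binding thymosins Tmsb4x and Tmsb10 were lower but uneven. Tmsb10 read 10.15 and 9.85 in Purkinje arrays 1 and 2 and 5.34 and 5.66 in arrays 3 and 4, against 10.87 to 11.57 in Stellate/Basket arrays. Its difference was -1.31 without arrays 3 and 4 and -5.81 without arrays 1 and 2.

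Immediate early genes, induced by activity or by handling of cells, were lower in Purkinje cells for 7 of 18 and higher for none, with a median of -0.73. Egr1 read 9.47, 8.62, 7.41 and 7.75 in Purkinje arrays and 11.27, 11.54, 11.14 and 11.45 in Stellate/Basket arrays. Dusp1 differed by -3.13 ± 0.39 and Fos by -1.91 ± 0.38. These values stand beside the tissue digestion common to both groups, whose part was not tested.

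**Figure D4:**
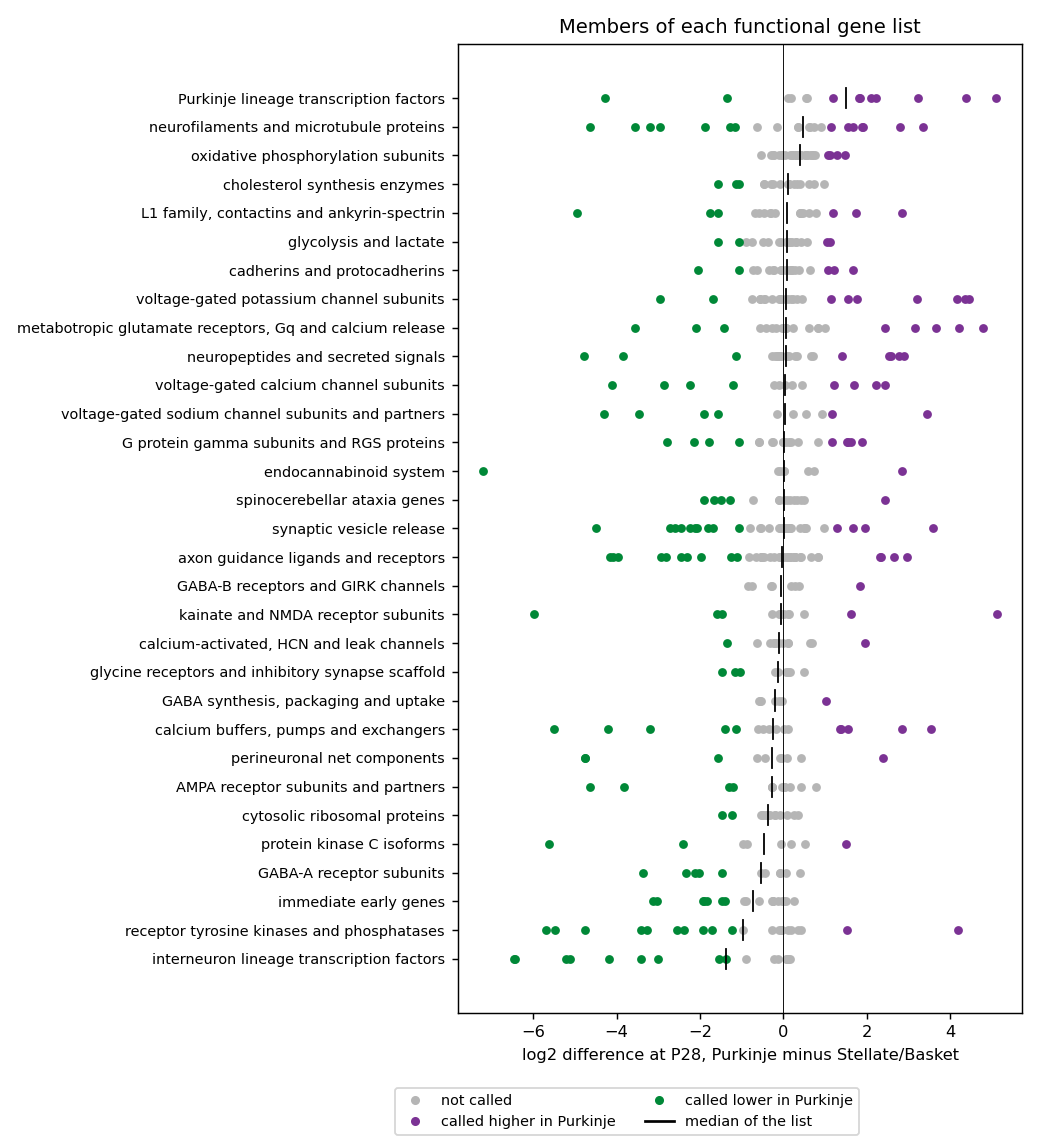
Log2 difference at P28 (Purkinje minus Stellate/Basket) of each tested member of 31 functional gene lists, ordered by the list's median, which is drawn as a black bar. Called genes are coloured; the Purkinje lineage factors have the highest median at 1.51 and the interneuron lineage factors the lowest at -1.38.

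Metabolic genes differed little in size. Of 29 oxidative phosphorylation subunits, Atp5g1, Uqcrh, Ndufs3 and Ndufa9 were higher in Purkinje cells, and the list's median was 0.40. The 3′ bias of the arrays, which RNA integrity and amplification can set, moved with cell type: the log2 signal of the 3′ Gapdh control probe set exceeded the 5′ one by 1.50 to 1.79 in Purkinje arrays and by 2.56 to 2.66 in Stellate/Basket arrays. With this gap as a covariate the median was 0.18 and none of the 29 was called by limma, while 2656 genes in all were. Of 19 glycolysis genes, Aldoc and Pkm were higher and Hk2 and Pfkp lower. Pkm was at 0.72 without Purkinje arrays 1 and 2, and Pfkp at -0.58 (adjusted p = 0.102, limma) without arrays 3 and 4, neither of them called. Another Aldoc probe set differed by -0.28 and was not called. Rpl37 and Rpsa were lower among 15 ribosomal protein genes, and Cyp51, Msmo1 and Hmgcs1 among 17 cholesterol synthesis genes. Of all genes tested, 8.36% were called higher and 8.14% lower, and the counts of these lists were not tested against those shares.

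Among G protein gamma subunits and RGS proteins, 5 of 20 were higher and 4 lower. Gng13 was higher by 1.89 ± 0.36. Gng12 differed by -2.79 ± 0.17 and Rgs17 by -2.14 ± 0.21. Gng4 rested on Purkinje array 2, which read 11.07 against 7.09 to 8.14 in the others, and without that array its difference was 0.73 (adjusted p = 0.308, limma). Of 15 spinocerebellar ataxia genes tested, Cacna1g was higher in Purkinje cells, and Fgf14, Atxn1, Atxn7 and Eef2 were lower, from -1.27 to -1.91, with the limits given above for Fgf14.

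Many differences were also called at the neighbouring ages, more at P21 than at P35. At P21, with 4 Purkinje and 3 Stellate/Basket arrays, 876 of the 1461 genes higher at P28 were called the same way (60.0%), which is 73.6% of the 1190 called there. Of the 1423 genes lower at P28, 903 were called lower at P21 (63.5%), or 77.5% of 1165. At P35, with 4 and 2 arrays, 704 (48.2%) and 731 (51.4%) were called the same way, or 68.8% and 76.1% of the calls there. All 3 ages shared 599 genes higher and 616 lower. These ages have arrays of their own.

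The difference itself was then tested between ages. Against P21, 117 genes were called, or 0.669% of those tested, 40 with a difference more towards Purkinje cells at P28 (0.229%) and 77 more towards Stellate/Basket cells (0.441%). The count was 56 without Purkinje P21 array 2, 218 without Purkinje P21 array 1 and 753 with array weights. In 4 of the 5 largest of the latter, the Stellate/Basket level was higher at P28. Ctss, a lysosomal protease of microglia, read 8.49, 8.77, 7.49 and 8.15 in Stellate/Basket arrays at P28 and 4.99 to 5.49 at P21, while Purkinje arrays stayed at 5.22 to 5.35 at both ages. Its cell type difference was -2.97 at P28 and 0.09 at P21 (change -3.06 ± 0.39, adjusted p = 4.08e-05, limma). Glial lists moved the same way: the astrocyte and Bergmann glia median was -2.55 at P21 and -3.77 at P28, and the microglia median -0.04 and -0.48. Their part in these changes was not tested. Slc4a4, a bicarbonate cotransporter, Nfe2l2, the oxidative stress factor NRF2, and Ctxn3 followed the same pattern, with changes of -2.89, -2.70 and -2.51. Il18, an interleukin, moved mainly in Purkinje cells: its mean there was 11.17 ± 0.30 (SD, n = 4) at P21, and the Purkinje arrays read 8.32, 10.71, 8.77 and 9.13 at P28.

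Towards Purkinje cells the largest changes from P21 were in Mia, Rec8, Sgpp2, Pdxdc1 and Cad. Mia, a secreted protein, had a Stellate/Basket mean of 10.67 ± 0.18 (SD, n = 3) at P21 and read 8.21, 8.31, 8.36 and 8.92 at P28. Its Purkinje arrays read 6.89 to 7.11 at P28. Sgpp2, a sphingosine phosphate phosphatase, was the reverse case: its Purkinje mean was 8.64 ± 0.20 (SD, n = 4) at P21, and the P28 arrays read 10.91, 10.10, 10.68 and 10.35. Other probe sets of Pdxdc1 and Cad ran against the ones used.

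Against P35, 304 genes were called, or 1.74%, 191 (1.09%) more towards Purkinje cells at P28 and 113 (0.647%) less. The count moved far with the arrays and settings used. Leaving out Stellate/Basket P35 array 1 gave 83 genes and leaving out array 2 gave 529, and the fit of the compared groups alone with a replicate block gave 5. With the 3′ minus 5′ Gapdh gap as a covariate it was 41. At P35 that gap was 1.83 to 2.77 in Purkinje arrays and 2.04 to 2.18 in Stellate/Basket arrays. Its part in the count was not tested. Eif4e2, which binds the mRNA cap, read 9.90, 9.60, 8.63 and 8.78 in Purkinje arrays at P28 and had a mean of 7.82 ± 0.21 (SD, n = 4) at P35. Its cell type difference on the probe set used was 2.51 at P28 and 0.08 at P35. The other Eif4e2 probe sets differed by 0.21 to 0.34 at P28 and were not called. With the mean of its probe sets, the P28 difference minus that at P35 was 0.72. Cyp4v3, a fatty acid hydroxylase, changed sign: the difference was -1.52 at P28 and 1.97 at P35 (change -3.49 ± 0.53, adjusted p = 0.000962, limma). Cd24a, a surface glycoprotein, was lower in Purkinje cells at both ages, at -2.70 at P28 and -5.21 at P35, but the change of its difference lost its call in 18 of 33 alternatives.

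**Figure D5:**
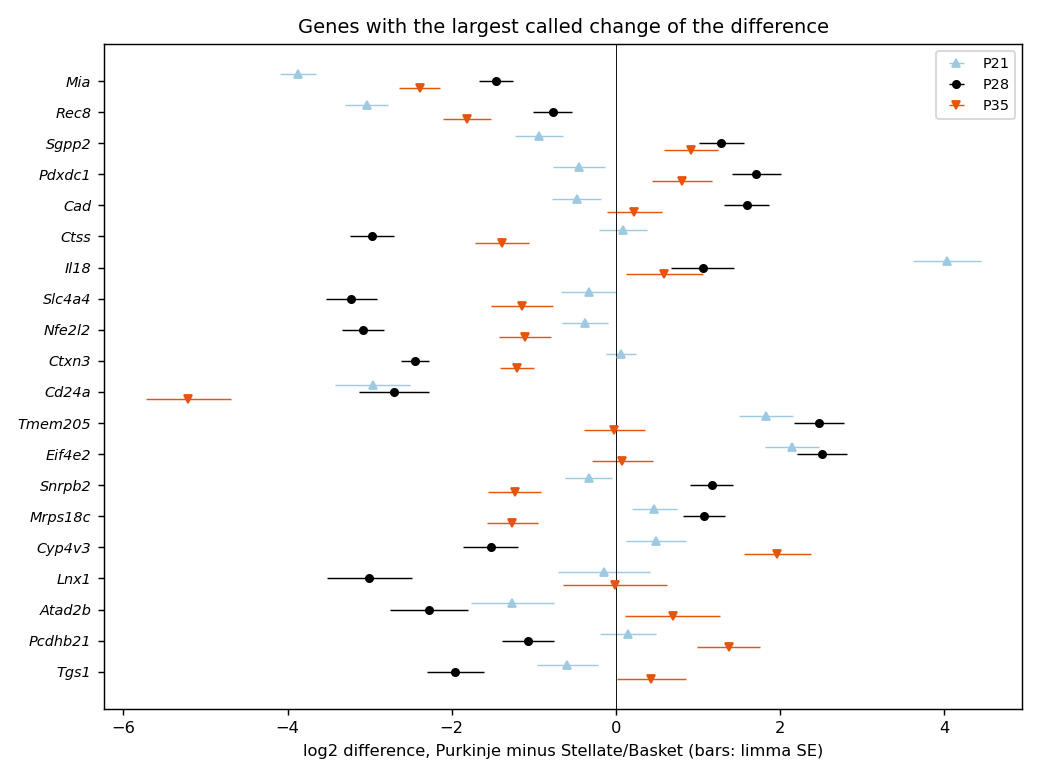
Log2 difference between Purkinje and Stellate/Basket cells at P21, P28 and P35 with limma standard errors, for the 20 genes with the largest called change of that difference between P28 and 1 of the other ages. Ctss, Slc4a4, Nfe2l2 and Ctxn3 lie between -0.37 and 0.09 at P21 and below -2 at P28.

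Arrays of 1 group were close for most genes, with a median SD of 0.209 log2 units in Purkinje and 0.180 in Stellate/Basket cells. An SD over 1 was reached by 124 genes in Purkinje and 84 in Stellate/Basket arrays. Ankrd6 read 10.29 in Purkinje array 2 and 5.52 to 5.97 in the others. In Stellate/Basket arrays Pxylp1 read 9.08, 8.19, 4.87 and 5.92 and Prkd1 read 4.81, 4.17, 6.48 and 7.86. Prkd1 was still below all Purkinje arrays, which read 9.43 to 10.09.

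Probe sets of 1 gene did not always move together. Of 1857 called genes with several probe sets, 288 had all of them called the same way, 1531 had some not called, and 38 had 1 called the other way. Over all genes, 67 had probe sets called in opposite directions. In Kcnma1, the large-conductance calcium-activated potassium channel, the brightest probe set differed by -0.21, while others were called at 2.89 and -3.77. Enah, an actin regulator, had probe sets at -4.18 and 1.03, and Septin8 at 2.18 and -2.93. Klf3 and Ccdc39 were the other examples with the widest gaps.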

How the data were processed

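Expression was measured on 42 MOE430.2 columns of Purkinje and Stellate/Basket cells at 7 and 5 ages. The deposited values are log2 signals per probe set, normalized by the authors. GCRMA and R 2.9.1 are named in the submitters' processing notes, with no role given. 2 columns at other ages equal the mean of other columns of their group (within 1e-08) and were left out, so 40 arrays entered the fit. Probe sets with 1 symbol were used (34958 of 45101), and the one with the highest mean stood for each gene (18194 genes). Genes above log2 5 in at least 3 arrays were tested (17478).

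A linear model (limma 3.58.1, R 4.3.3) was fitted to 12 groups of cell type and age, so each SE pools the spread of all ages. Benjamini-Hochberg adjustment ran over all genes tested, separately for each comparison. On simulated data with log2 changes of 1.5, 2 and 3, the share recovered was 89.6%, 98.5% and 100% for P28, 71.6%, 82.1% and 98.5% for the change from P21, and 74.6%, 88.1% and 97% for that from P35. Each simulation changed 200 of 17478 genes and drew independent noise for each array, with 1 spread per gene. It held no close pair such as Purkinje arrays 3 and 4, so the shares do not describe how stable the real counts were.

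Named were the 15 largest called differences in each direction with separate arrays, the 5 largest changes of the difference each way against P21 and P35, up to 5 called members of each list (or the 2 brightest where fewer than 2 were called), the 5 most variable genes of each cell type, 5 genes with opposed probe sets, and check genes. Clone and model symbols were not named (61 higher, 36 lower). Other list members and Cldn5 were named after their values were seen. The 39 lists hold 639 genes, of which 579 were tested, and some lists share members: 8 Purkinje and 5 interneuron markers stand in another list. The comparison and the lists were chosen with earlier results of these data known. Ddx3y was not tested. Arrays have no read depth, and precision is limited by how many there are. Alternatives covered filters, probe set choice, scaling, variance model, weights, a replicate block, thresholds, arrays left out and covariates.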

Additional observations from a re-analysis of the deposited data

Results flagged for a closer look

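Within a P28 group of 4 arrays, 11 of 96 gene or list checks had 1 array far from the other 3, where chance gives about 1 in 20. In Purkinje array 1, Gja1 read 9.35 (others 5.10 to 5.17) and Megf10 6.42 (5.30 to 5.39). There the oligodendrocyte marker mean was 7.56 (6.88 to 6.99) and Calb1 was 13.50 (13.635 to 13.653). In Purkinje array 2, Cnpy1 read 6.73 (others 4.23 to 4.48), Rasl11b 10.92 (11.75 to 11.84), Pcp2 12.99 (13.35 to 13.40), Uty 5.19, above the other 3, and the molecular layer interneuron marker mean 6.16 (5.86 to 5.87). Bcl11a read 11.01 in Purkinje array 4 (others 11.34 to 11.38), and Ptprk 11.39 in Stellate/Basket array 3 (11.93 to 12.04).

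Genes whose cell type difference changed between ages, by limma's test of the change, are given as the P28 difference minus that at the other age. Against P21 the values were 2.42 for Mia, 2.27 for Rec8, 2.22 for Sgpp2, 2.16 for Pdxdc1 and 2.07 for Cad. They were -3.06 for Ctss, -2.97 for Il18, -2.89 for Slc4a4, -2.70 for Nfe2l2 and -2.51 for Ctxn3. Against P35 they were 2.51 for Cd24a, 2.49 for Tmem205, 2.44 for Eif4e2, 2.40 for Snrpb2 and 2.34 for Mrps18c. They were -3.49 for Cyp4v3, -2.99 for Lnx1, -2.97 for Atad2b, -2.44 for Pcdhb21 and -2.39 for Tgs1. The changes of Cd24a and Lnx1 lay just under the threshold (adjusted p = 0.0443 and 0.0489, limma) and lost their calls in 18 and 19 of 33 alternatives.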

How the results depend on the processing

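The count of 2884 called genes at P28 stayed within 1.5 times under all alternatives except 2. With the mean of a gene's probe sets it was 1914 (895 lower), and with a log2 size of at least 2 it was 801 (322 higher, 479 lower). Leaving out 1 P28 array at a time gave 2774 to 2969 (1321 to 1601 higher, 1368 to 1491 lower). Same-numbered arrays of the cell types did not deviate together (r of -0.04 to 0.06, against -0.10 to 0.09 for other numbers). Spread between single arrays can hide a shared animal, so these values do not show whether the replicate numbers pair them. With the number as a replicate block in all groups 2879 genes were called, and with only the compared groups and the block 2793.

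Counts of changed differences moved far more, and the cause was not tested. Against P21 (117), array weights gave 753, the compared groups with the block 71, an adjusted p under 0.01 gave 45, a log2 size of 2 gave 26, dropping Purkinje P28 arrays 3 and 4 gave 222, and leaving out 1 array gave 56 (Purkinje P21 array 2) to 218 (Purkinje P21 array 1). Against P35 (304), the Gapdh covariate gave 41, all 42 columns 617, array weights 609, mean probe sets 194, the compared groups 115 and with the block 5, an adjusted p under 0.01 gave 45 and a log2 size of 2 gave 35. Dropping Purkinje P28 arrays 1 and 2 gave 157, dropping arrays 3 and 4 gave 594, and leaving out 1 array gave 83 to 529.

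Some directions turned. With the most variable probe set, Pdxdc1 was -0.85, Cad -0.80, Gabbr1 -2.43 and Aldoc -0.28 at P28, and the change of Pdxdc1 from P21 was -2.40. With mean probe sets that change was -0.10 and Septin8 at P28 was -0.61. With Xist as a covariate Eif2s3y was -1.99. The covariates, the averaging of Purkinje arrays 3 and 4 and dropping pairs of arrays were chosen after seeing the data.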
